A study of Triticum aestivum and Triticum urartu with 56 samples.

Results

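The regions described here are 1905 clusters of transcription start sites of bread wheat, in which transcripts were found in each of 4 tissues and began at many different bases. They were chosen from CAGE data, which record the first base of capped transcripts as a tag. The tags of 11 libraries were pooled, positions at most 20 bp apart on a strand were joined, and a cluster counted as ubiquitous when at least 2 libraries of every tissue held at least 2 tags in it. This left 10223 ubiquitous clusters of 131166 that met the same minimum in at least 1 tissue. Of these, 2011 had under 25% of their pooled tags at the top position, the base with the most tags. A further 106 were set aside because a ubiquitous cluster of the other strand lay within 400 bp. The remaining 1905, or 18.6% of the ubiquitous clusters, are called dispersed promoters below, a name that rests on the tags alone. For comparison, 3345 unpaired ubiquitous clusters had at least 50% of their tags at the top position and are called concentrated promoters. The tags chose both sets, so their width, their concentration and their presence in all tissues are given as descriptions without a test.

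All libraries came from untreated plants of the cultivar Chinese Spring. The seedling libraries (n = 4) were made from the parts above ground after 9 days of growth, the root libraries (n = 2) from roots after 9 days in nutrient solution, the spike libraries (n = 2) from spikes at booting, and the embryo libraries (n = 3) from immature embryos at 14 days post anthesis. A second tissue field in the labels names seedlings for every library, so the tissue was taken from the library titles. The labels do not say which libraries came from separate plants, so the p-values below measure the spread between libraries, which may be technical. Totals ranged from 2970800 to 24399682 tags, and dispersed promoters held between 5.52% and 9.45% of the tags of a library. Levels are given as RPM, the tags of a cluster scaled by the total tags of its library. Across the 1905 promoters, log2(RPM + 0.5) correlated at r = 0.479 to 0.888 between libraries of the same tissue (median 0.677, 11 pairs) and at 0.272 to 0.654 between tissues (median 0.477, 44 pairs). Seedling replicate 1 stood apart, with r = 0.479, 0.509 and 0.605 to the other seedling libraries, and the calls by tissue and the ranks by level are given without it as well.

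RNA polymerase II starts transcription in the core promoter. At some promoters nearly all transcripts begin at the same base, often at a fixed distance downstream of a TATA box, whereas at others they begin at many bases over a broader stretch. In animals, broad initiation is typical of genes that most cells use, and focused initiation of genes with a strong tissue or developmental pattern. The histone marks H3K4me3 and H3K9ac are found at active promoters of plants, mostly over the first nucleosomes downstream of the start site.

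Tags of a dispersed promoter were spread over a median of 85 bp (quartiles 60 and 118, range 6 to 684 bp). The stretch between the 10% and 90% points of the tags, which gives less weight to stray tags, had a median of 51 bp (quartiles 30 and 75). It was 4 bp in the concentrated promoters and 21 bp in the 4306 unpaired clusters between both classes. A median of 29 different bases carried at least 1 tag, against 9 in concentrated promoters. The effective number of positions, which is the exponential of the Shannon entropy of the tags, was 13.5 against 2.95. Dispersed promoters were also deeper, with a median of 1463 pooled tags against 1098, and counts of bases with a tag and total lengths grow with depth.

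**Figure D1:**
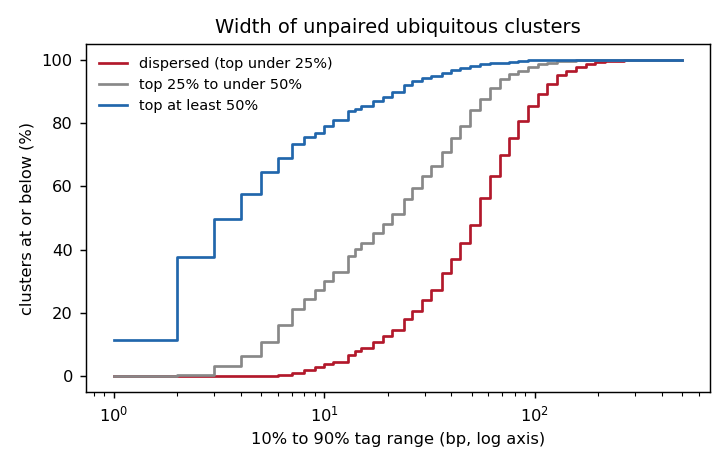
Share of unpaired ubiquitous clusters (vertical axis, %) whose 10% to 90% tag range is at most the width on the log horizontal axis (bp), for dispersed promoters, clusters with the top position at 25% to under 50% of tags, and clusters with at least 50%. The dispersed promoters reach their median at 51 bp, the middle class at 21 bp and the concentrated class at 4 bp.

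Below the top position, whose share the rule limits, the tags lay at several further start sites. The top position held a median of 19.9% of pooled tags and the second 14.6%, and 4 positions were needed to reach 50% of the tags. A median of 6 positions held at least 5% of the tags each, and together these held 72.1%. The second position was 13 bp from the top in the median (quartiles 4 and 33 bp). It was the neighbouring base in 236 promoters (12.4%), against 66.8% of concentrated promoters. At 223 promoters (11.7%) it lay more than 50 bp away. It was downstream of the top in 994 promoters (52.2%), so neither side prevailed, against 72.0% in concentrated promoters.

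Pooling can make a promoter look more dispersed than it is in any library, because libraries with different top positions are added together. Single libraries could be examined in 318 promoters with at least 30 tags in every library, whose pooled top share had a median of 18.3%. In the libraries themselves, the own top position held a median of 22.8%, 39.3%, 36.3% and 25.5% of tags in the 4 seedling libraries, 25.9% and 23.0% in spike, 30.1%, 30.5% and 27.9% in embryo, and 23.1% and 22.1% in root. Seedling replicates 2 and 3 were the most concentrated. With 30 tags drawn per library the medians were 40.0% in these, 33.3%, 33.3% and 30.0% in embryo, and 23.3% to 30.0% in the other libraries, so embryo replicate 3 and spike replicate 1 did not differ in the median. Over the genome, seedling replicates 2 and 3 had tags at 141115 and 180300 positions, and embryo libraries at 144389 to 224640. Spike replicate 1 and seedling replicate 4 had 228105 and 289260, and the other libraries 348138 to 401511. Drawing 30 tags does not make these numbers equal, and their part in the shares was not tested. Only 10 of the 318 promoters stayed under 25% in all 11 libraries, 121 did so in at least 6, and 9 in none. In 180, at least 1 library had 50% or more of its tags at a single base, while 138 stayed below 50% in every library. The median was thus under the 25% limit in 4 of the 11 libraries and above it in 7, so the label "dispersed" holds for the pooled tags and often not for a single library. With every promoter thinned to 30 tags per library, the median 10% to 90% range was still 34 to 54 bp, against 2 to 4 bp in 433 concentrated promoters with at least 30 tags in every library.

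The top position of a tissue, from the tags summed over its libraries, was often a different base in another tissue. The low share of the pooled top that defines dispersed promoters bears on this directly, so the shares below, and those of concentrated promoters, are descriptions. Of 1477 with at least 50 tags in each tissue, 47 (3.18%) had the same top position in all 4 tissues, whereas 1501 of 2071 concentrated promoters (72.5%) did. The tissue tops of a promoter were spread over a median of 30 bp (quartiles 13 and 57), by more than 50 bp in 440 (29.8%), and 570 promoters had a different top in every tissue. The pooled top was also the top of seedling in 36.2% of promoters, of spike in 42.4%, of embryo in 36.6% and of root in 43.5%. Seedling and root shared their top most often (24.3% of promoters), and embryo shared its top with seedling, spike and root in 14.4%, 14.1% and 14.8%.

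Tops also differed between libraries of the same tissue. With 30 tags drawn per promoter and library, 2 libraries had the same top at a mean of 17.7% of the 318 promoters when they came from the same tissue (11 pairs) and at 16.9% when they did not (44 pairs). The difference of 0.815 percentage points had a two-sided p of 0.442 in an exact permutation test over the 34650 ways to assign 11 libraries to groups of these sizes. The median distance between tops was 10.3 and 10.7 bp (exact permutation p = 0.590). In concentrated promoters the shares were 82.0% and 84.0% (exact permutation p = 0.168). The rule set the pooled top share of both classes and so bears on the size of all these shares. In concentrated promoters it leaves little room for a difference, and nothing is read from theirs. A low pooled top share also favours promoters whose libraries differ in their top position. The tests in the 318 dispersed promoters are thus not independent of the rule. No conclusion about shifts between tissues is drawn from them.

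**Figure D2:**
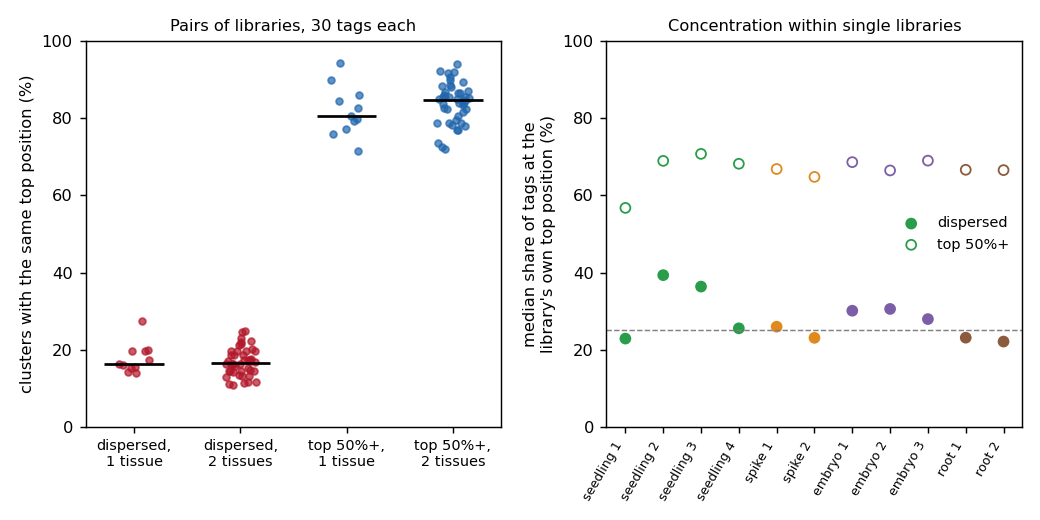
Left, share of clusters (%) whose top position was the same base in a pair of libraries after thinning to 30 tags, with a point for each pair and a line at the median, for 318 dispersed and 433 concentrated promoters. Right, median share of tags (%) at the library's own top position in each library, with the 25% limit dashed; dispersed promoters lie between 22.1% and 39.3% and concentrated ones between 56.8% and 70.8%.

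The mean position of the tags, which draws on all start sites of a promoter, was compared between tissues with a limma F-test over the 2496 ubiquitous clusters that had at least 10 tags in each library. At an adjusted p under 0.05, 0 of 564 dispersed promoters were called, against 2 of all 2496 clusters tested (0.0801%). A further count at an unadjusted p under 0.05 gave 62 of the 564, beside 212 of all 2496 (8.49%) and 37 of 732 concentrated promoters. The tissue means of a dispersed promoter spanned a median of 11.7 bp (quartiles 6.34 and 22.4 bp), beside a median standard deviation of 9.50 bp between libraries of the same tissue. In simulated data with shifts in root alone, shifts of 2 standard deviations were recovered in 2% of clusters and shifts of 6 in 73%. Moderate shifts of this kind would thus have been missed. Shifts in another tissue, or in several tissues together, were not simulated.

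The smallest adjusted p among them belonged to a promoter on the minus strand at chr4A:312726661-312726911, which was singled out after its values were seen. Its mean tag position, relative to the pooled top and with negative values upstream, was -26.2, -14.1, -23.3 and -32.9 bp in seedling, -52.9 and -56.1 bp in spike, -56.7, -59.8 and -58.7 bp in embryo, and -30.5 and -31.2 bp in root. Spike and embryo libraries all lay further upstream than seedling and root libraries, without overlap. The F-test nevertheless missed the threshold after adjustment (limma adjusted p = 0.0707).

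The level of dispersed promoters had a median of 11.8 RPM over the 4 tissue means, from 0.556 to 3335 RPM. Median levels of single libraries were lowest in seedling (5.39 to 7.52 RPM) and embryo (6.81 to 7.74 RPM) and higher in spike (11.8 and 12.9 RPM) and root (12.7 and 13.4 RPM). All 1905 promoters had at least 2 tags in each spike and root library, as the rule demanded of tissues with 2 libraries, while 1562 to 1841 were detected in a seedling library and 1722 to 1816 in an embryo library. The rule thus asked more of spike and root than of seedling and embryo, and the order of the tissues cannot be told apart from it. The coefficient of variation between libraries of a tissue had a median of 22.9% in root, 32.5% in spike, 67.6% in embryo and 87.1% in seedling, and of 9.48%, 11.9%, 26.7% and 48.1% in promoters with at least 100 tags in every library.

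**Figure D3:**
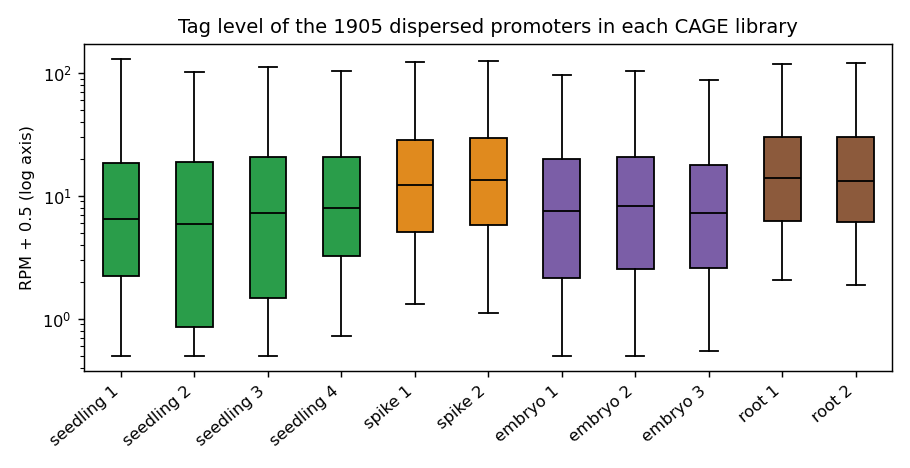
RPM + 0.5 of the 1905 dispersed promoters in each of the 11 CAGE libraries, on a log axis, with the median, the quartiles and whiskers at the 5% and 95% points. Medians are 5.39 to 7.74 RPM in seedling and embryo libraries and 11.8 to 13.4 RPM in spike and root libraries.

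Presence in all tissues did not mean an even level. The highest tissue mean exceeded the lowest by a median factor of 5.13, by at least 10 in 457 promoters (24.0%) and by less than 2 in 161. It did so by at least 100 in 34 and by at least 1000 in 14. Of the 34, 11 were highest in seedling, 10 in embryo, 7 in root and 6 in spike. The median factor was 5.34 in all ubiquitous clusters, 5.75 in concentrated promoters and 5.24 in the unpaired clusters between both classes. Uneven levels were thus not particular to dispersed promoters. Spread between libraries of a tissue also raises this factor, and by how much was not tested. The lowest tissue mean was under 1 RPM in 248 promoters (13.0%), so the label "ubiquitous" meant a few tags in some tissues of these. Root was the tissue with the highest mean in 723 promoters, spike in 566, seedling in 329 and embryo in 287.

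Tissue levels were tested with edgeR's quasi-likelihood model on the tags of all 131166 clusters, with the mean of the other 3 tissues as the baseline for each, at an adjusted p under 0.05 and an absolute log2 fold change of at least 1. Among the dispersed promoters, 73 were higher in seedling (3.83%, beside 20.7% of all clusters) and 68 were lower (beside 1.81%). In spike, 17 were higher (beside 7.9%) and 4 lower (beside 0.217%). In embryo, 27 were higher (beside 6.49%) and 32 lower (beside 1.49%). In root, 23 were higher (beside 16.3%) and 22 lower (beside 0.485%). Since members had to carry tags in every tissue, their lower share of higher calls is a property of the rule and nothing is read from it. In all, 191 promoters (10.0%) were called in at least 1 tissue, beside 51.1% of all clusters and 10.2% of the ubiquitous ones. In 2 or more tissues 56 (2.94%) were called, beside 3.18% and 3.91%. Dispersed promoters were thus near the other ubiquitous clusters in both shares.

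The libraries of the tissue lay entirely above the others in 43 of the 73 promoters higher in seedling, 11 of 17 in spike, 26 of 27 in embryo and 21 of 23 in root. The median log2 fold change of the higher promoters was 3.52, 3.24, 3.70 and 3.28 in these tissues. How many were called depended on single libraries and on the scaling. Without seedling replicate 1, 113 were lower in seedling, 39 higher in spike, 50 higher in embryo and 32 lower in root. Without either spike library, 0 were higher in root by edgeR, whereas with all libraries 57 were higher at an unadjusted p under 0.05 (beside 26.2% of all clusters) and DESeq2 called 1. Calls that held in each of 6 other settings and without each of the 11 libraries numbered 26 higher and 13 lower in seedling, 2 and 0 in spike, 12 and 8 in embryo, and 0 and 4 in root. With scaling factors taken from the ubiquitous clusters alone, the median log2 difference of the dispersed promoters moved from -0.41 to 0.15 in seedling and from 0.51 to -0.02 in spike, and the calls became 137 higher and 44 lower in seedling, 36 and 32 in embryo, and 6 and 8 in spike. With library totals alone, 40 were higher and 17 lower in root. In simulated data, 9% of 4-fold and 31% of 16-fold increases in embryo were recovered, so an uncalled promoter may still differ.

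The tissue-biased promoters are described through the 2 with the largest increase in each tissue among those whose libraries did not overlap the rest. The promoter at chr2A:65402780-65402966 (plus strand) had 4263, 3536, 7014 and 3580 RPM in seedling, 181 and 351 RPM in spike, 0.397, 0.673 and 0.150 RPM in embryo, and 0.418 and 0.538 RPM in root. Seedling was highest, spike lay between, and embryo and root held a few tags each. Its log2 fold change in seedling was 10.30 ± 0.55 (SE, edgeR adjusted p = 1.2e-08), and it was also higher in spike and lower in embryo and root. This promoter was 187 bp long, but 80% of its tags fell within 13 bp. The minus-strand promoter at chr6D:350930212-350930327 had 1007, 2161, 1319 and 1979 RPM in seedling, 20.05 and 16.1 RPM in spike, 0.198, 0 and 0.250 RPM in embryo, and 0.732 and 0.597 RPM in root. It too was confined mostly to seedling, with a log2 fold change of 10.23 ± 0.66 (SE, edgeR adjusted p = 9.9e-08). Both calls held in all 17 other settings.

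In embryo, the plus-strand promoter at chr5D:493451374-493451726 had 1932, 2071 and 2171 RPM, against 0, 0, 0.655 and 0.884 RPM in seedling, 0.657 and 0.615 RPM in spike, and 0.418 and 0.239 RPM in root. A count of 0 allowed up to 0.368 RPM in seedling replicate 1 and 0.539 RPM in seedling replicate 2. The log2 fold change in embryo was 12.49 ± 0.97 (SE, edgeR adjusted p = 2.7e-06). The plus-strand promoter at chr5B:609194547-609194824 had 1518, 1271 and 1467 RPM in embryo, against 0, 0, 0.491 and 0.553 RPM in seedling, 0.493 and 0.410 RPM in spike, and 0.732 and 0.657 RPM in root. The log2 fold change was 11.96 ± 0.92 (SE, edgeR adjusted p = 2.7e-06). Both were active in embryo and at the edge of detection elsewhere, and both were wide, at 353 and 278 bp. Their embryo calls held in all 17 other settings.

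Increases in spike and root were smaller. On the minus strand at chr2B:442308253-442308318, spike had 1194 and 1262 RPM, seedling 427, 238, 247 and 274 RPM, root 195 and 223 RPM, and embryo 3.04, 3.37 and 1.15 RPM. Spike stood above all other libraries and embryo below them (edgeR log2 fold change 4.61 ± 0.53 SE in spike, adjusted p = 0.00023, and -7.23 ± 0.80 SE in embryo, adjusted p = 4.3e-05). On the minus strand at chr6A:475001948-475002019, spike had 88.4 and 59.1 RPM and all other libraries 0 to 8.42 RPM (edgeR log2 fold change 4.55 ± 1.03 SE, adjusted p = 0.026). In root, the minus-strand promoter at chr2B:463280889-463281082 had 207 and 172 RPM. Other tissues varied, with 9.94, 0, 0 and 8.18 RPM in seedling, 2.63 and 1.89 RPM in spike, and 0, 9.09 and 0.1001 RPM in embryo (edgeR log2 fold change 5.70 ± 1.54 SE, adjusted p = 0.015). The plus-strand promoter at chr6B:193891214-193891288 had 168 and 185 RPM in root, 95.7, 26.6, 24.7 and 25.6 RPM in seedling, 6.90 and 2.66 RPM in spike, and 1.98, 0 and 0.1001 RPM in embryo (edgeR log2 fold change 4.61 ± 1.01 SE in root, adjusted p = 0.014). The last 3 of these calls missed the threshold in 5, 4 and 3 of the 17 other settings.

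**Figure D4:**
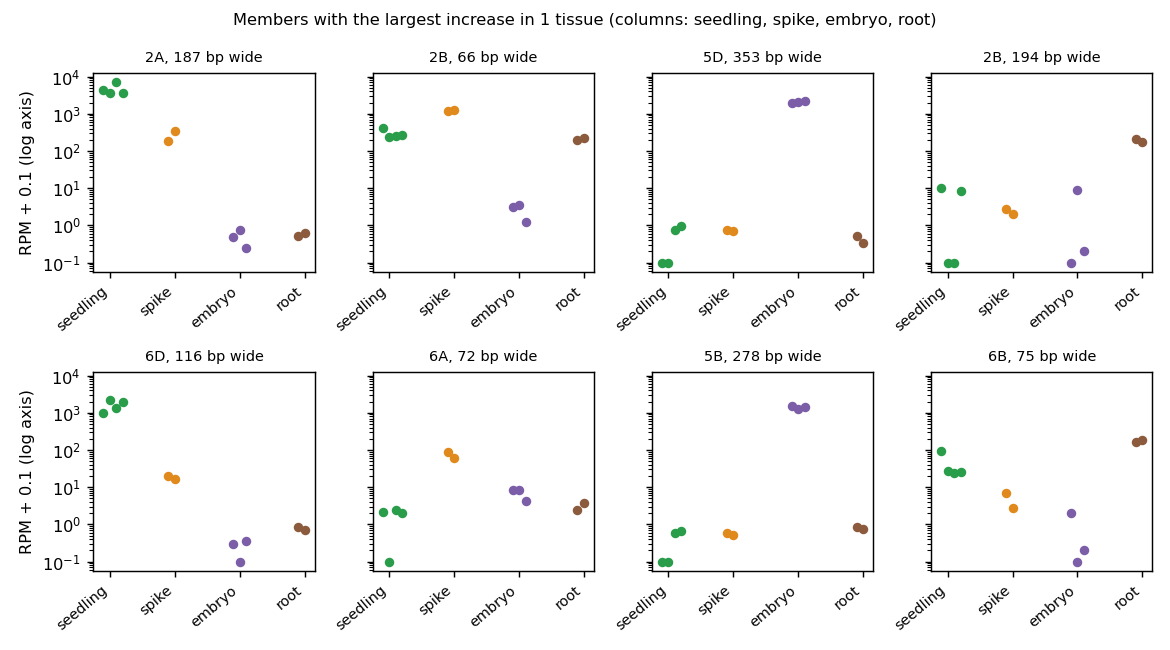
RPM + 0.1 on a log axis in each library of the 2 dispersed promoters with the largest increase in seedling, spike, embryo and root (columns from left to right), with a point for each library. The 5D and 5B promoters have 1271 to 2171 RPM in embryo and at most 0.884 RPM elsewhere, while the 2A and 6D promoters reach 1007 to 7014 RPM in seedling.

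The 6 promoters of highest level are described next. Without seedling replicate 1, 5 of them stayed among the 6 of highest level, and the exception, at chr4A:733000913-733001177, fell from 1332 RPM and rank 5 to 1105 RPM and rank 11. The minus-strand promoter at chr4B:566984274-566984507, 234 bp long with tags at 203 bases, had 4811, 1204, 736 and 562 RPM in seedling, 2428 and 3505 RPM in spike, 8482, 8349 and 6990 RPM in embryo, and 613 and 594 RPM in root. Embryo was highest and root low, with seedling replicate 1 far above the other seedling libraries. It was called higher in embryo (edgeR log2 fold change 2.61 ± 0.55 SE, adjusted p = 0.014) and lower in root (edgeR log2 fold change -2.99 ± 0.83 SE, adjusted p = 0.017). Its top position also differed between tissues. Counted downstream from the pooled top, the top lay at 0 bp in every spike and embryo library and at 59 bp in both root libraries, while the seedling libraries placed it at 119, 60, 0 and 59 bp.

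A similar tissue pattern was seen at chr7D:602908105-602908368 on the minus strand, which had 2615, 681, 845 and 373 RPM in seedling, 2431 and 3642 RPM in spike, 8992, 8298 and 6888 RPM in embryo, and 925 and 1269 RPM in root. Its increase in embryo had a log2 fold change of 2.58 ± 0.50 (SE, edgeR adjusted p = 0.0083). The plus-strand promoter at chr4A:679161278-679161542 had 1344, 566, 392 and 240 RPM in seedling, 1954 and 2862 RPM in spike, 6609, 6062 and 4708 RPM in embryo, and 376 and 263 RPM in root. It was higher in embryo (edgeR log2 fold change 3.09 ± 0.49 SE, adjusted p = 0.0016) and lower in root (edgeR log2 fold change -3.15 ± 0.74 SE, adjusted p = 0.014). In all 3 promoters no embryo library overlapped a library of another tissue, and spike came next to embryo on average.

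The plus-strand promoter at chr4A:733000913-733001177 had another order, with 2220 and 2809 RPM in root, 1640, 1265 and 1449 RPM in embryo, 94 and 126 RPM in spike, and 3983, 440, 312 and 282 RPM in seedling. Spike was below every other library (edgeR log2 fold change -3.87 ± 1.12 SE, adjusted p = 0.039). The call was lost in 8 of 17 other settings. Seedling replicate 1 was above all root libraries, and the other 3 seedling libraries below all embryo libraries.

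The other 2 of the 6 promoters of highest level were narrower and lay on chromosomes of homoeologous group 7. The plus-strand promoter at chr7A:290915804-290915997 had 187, 848, 1054 and 1331 RPM in seedling, 2495 and 2739 RPM in spike, 694, 1124 and 951 RPM in embryo, and 1820 and 2044 RPM in root. The plus-strand promoter at chr7D:265695956-265696149 had 623, 351, 466 and 718 RPM in seedling, 1994 and 2031 RPM in spike, 1036, 1803 and 1678 RPM in embryo, and 926 and 1113 RPM in root. Spike was highest in both, and only the decrease of the 7D promoter in seedling was called (edgeR log2 fold change -1.38 ± 0.42 SE, adjusted p = 0.023), a call lost in 11 of 17 other settings. Both were 194 bp long and among the least concentrated of all, with 5.87% and 5.85% of the tags at the top position.

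The 3 widest promoters, by the range of 80% of the tags, differed strongly between tissues. Wide promoters in general did not stand out in this. The ratio of highest to lowest tissue mean had a median of 5.05 in the 486 widest and 6.02 in the 457 narrowest. At chr5A:616548561-616549244 (plus strand), 684 bp long with the central 80% of tags over 474 bp, embryo had 1115, 1118 and 985 RPM, seedling 0, 0, 0.818 and 8.07 RPM, spike 0.329 and 0.164 RPM, and root 7.63 and 5.14 RPM (edgeR log2 fold change 9.78 ± 1.24 SE in embryo, adjusted p = 0.00018). At chr2A:680108944-680109610 (minus strand), 667 bp long with the central 80% over 402 bp, embryo had 431, 478 and 500 RPM, seedling 0, 0, 0.327 and 6.52 RPM, spike 0.329 and 0.0820 RPM, and root 3.45 and 2.63 RPM (edgeR log2 fold change 9.21 ± 1.28 SE in embryo, adjusted p = 0.00046). Both thus had tags mostly in embryo. The third, at chr5D:421422058-421422651 (plus strand), 594 bp long, was a seedling promoter with 297, 846, 1665 and 1094 RPM in seedling, 38.3 and 48.5 RPM in spike, 0.132, 3.03 and 0.150 RPM in embryo, and 0.209 and 0.179 RPM in root (edgeR log2 fold change 8.98 ± 0.83 SE in seedling, adjusted p = 3.7e-06).

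At the other extreme, 3 promoters with at least 100 tags in every library had the most even levels. The minus-strand promoter at chr2D:588233482-588233540 had 155, 132, 361 and 210 RPM in seedling, 214 and 223 RPM in spike, 130, 267 and 124 RPM in embryo, and 244 and 190 RPM in root, so that the highest tissue mean exceeded the lowest by a factor of 1.26. Next came chr1D:283577437-283577552 on the minus strand, with 80.8 to 126 RPM in seedling, 120 and 139 RPM in spike, 97.4 to 119 RPM in embryo, and 93.1 and 102 RPM in root (a factor of 1.33). The third was chr1A:355338606-355338751, also on the minus strand, with 92.5 to 241 RPM in seedling, 225 and 223 RPM in spike, 128 to 283 RPM in embryo, and 154 and 180 RPM in root (a factor of 1.34). The seedling libraries overlapped every other tissue in all 3 of them, none was called in any tissue, and each had its top position in H3K4me3 and H3K9ac peaks of spike.

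At the 25% limit, the members just inside were chr6B:503997717-503997771 (plus strand), with 24.98% of 1009 tags at the top position, and chr7D:13615964-13615996 (minus strand), with 24.97% of 3992 tags. Just outside were chr1D:248984959-248985027 (plus strand) with 25% of 1316 tags and chr6B:610810129-610810205 (plus strand) with 25.04% of 4178 tags. Their 10% to 90% ranges were 26 and 13 bp inside and 32 and 25 bp outside the limit, so the ranges of both sides overlapped.

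Chromatin at these positions was read from peak lists of H3K4me3 and H3K9ac from spikes at booting of another wheat cultivar, JW1, with 1 list for each mark. The lists were independent of the rule. The H3K4me3 list held 193251 peaks over 0.821% of the genome span and the H3K9ac list 343721 peaks over 0.916%. The top position of 1455 dispersed promoters (76.4%) lay in an H3K4me3 peak and that of 1232 (64.7%) in an H3K9ac peak, with 1211 (63.6%) in both and 429 (22.5%) in neither. The shares were 70.6% and 55.5% in concentrated promoters, 74.9% and 61.1% in all ubiquitous clusters, and 54.6% and 42.3% in all 131166 clusters. In the 4306 unpaired clusters between both classes they were 79.2% and 64.7%, so high shares were not particular to dispersed promoters. Dispersed promoters had the higher share than concentrated ones on 17 of 21 chromosomes for H3K4me3 and on 18 for H3K9ac. Among promoters with at least 100 tags in every library, the order for H3K4me3 was reversed. There, 70.6% of 102 dispersed and 78.7% of 164 concentrated promoters lay in an H3K4me3 peak, and 66.7% and 59.8% in an H3K9ac peak. Clusters are not replicates and each mark had 1 list, so the difference was not tested.

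The marks lay downstream of the start sites. Measured from the top position, the H3K4me3 peak reached a median of 120 bp upstream and 476 bp downstream, and the longer side was downstream in 86.0% of the promoters in a peak. The H3K9ac peak reached 78 bp upstream and 395 bp downstream. Among all dispersed promoters, the share covered was highest 100 bp downstream of the top, at 79.6% for H3K4me3 and 74.4% for H3K9ac, and had fallen to 38.5% and 25.8% at 500 bp downstream and to 11.2% and 9.76% at 500 bp upstream.

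**Figure D5:**
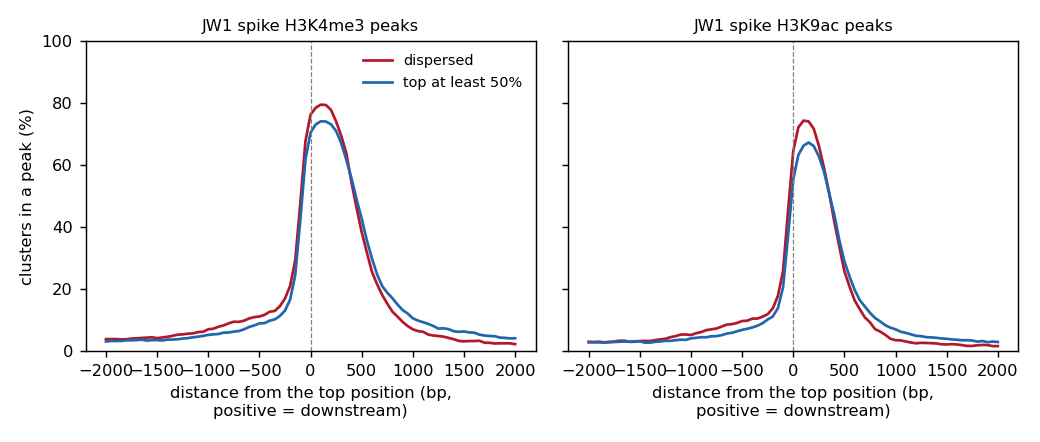
Share of dispersed and concentrated promoters (%) that lie in a JW1 spike peak of H3K4me3 (left) or H3K9ac (right) at each distance from the top position (bp, positive values downstream in the direction of transcription). Dispersed promoters reach 79.6% and 74.4% at 100 bp downstream.

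Peaks were not equally frequent among the dispersed promoters. In the 486 with the widest tag range (75 to 474 bp), 67.5% lay in an H3K4me3 peak and 54.1% in an H3K9ac peak, against 77.5% to 82.1% and 63.7% to 74.0% in the other 3 classes of width. Promoters with their highest level in embryo had the lowest shares (63.4% and 55.7%), and those highest in root the highest (80.8% and 67.9%). Of the 27 promoters called higher in embryo, 12 lay in an H3K4me3 peak and 6 in an H3K9ac peak, whereas 57 and 49 of the 73 called higher in seedling did, 13 and 9 of 17 in spike, and 16 and 13 of 23 in root. The peaks came from spike alone, and the part of the tissue in these shares was not tested.

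The dispersed promoters of highest level by tags were the least often in a peak. Among the 20 of highest level (393 to 3335 RPM), 8 lay in an H3K4me3 peak and 6 in an H3K9ac peak, against 51 and 44 of the 80 ranked 21 to 100 and 78.0% and 65.6% of those ranked below 1000. After the values were seen, the 20 were divided by length. Of the 10 that were at least 200 bp long, 0 had their top in a peak of either mark and 7 were highest in embryo. Of the 10 shorter ones, 8 lay in an H3K4me3 peak and 6 in an H3K9ac peak. The mean level of the 10 that were at least 200 bp long ranged from 0.636 to 3037 RPM in the Chinese Spring spike libraries (median 989 RPM). Their tags lay at a median of 70.9% of their bases, against 62.4% in the 10 shorter ones and 36.7% in all members. This share grows with depth, and whether these 10 are promoters was not tested. With levels taken without seedling replicate 1, 18 of the 20 were again among the 20 of highest level, of which 8 lay in an H3K4me3 peak and 7 in an H3K9ac peak, against 49 and 40 of the next 80. Of the 11 that were then at least 200 bp long, 1 had its top in peaks of both marks. Among concentrated promoters, 10 of the 20 of highest level lay in an H3K4me3 peak and 4 in an H3K9ac peak.

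Dispersed promoters were spread over the genome much as the ubiquitous clusters were. Subgenome A held 626 (32.9%), B 646 (33.9%) and D 612 (32.1%), against 32.8%, 33.9% and 32.3% of the ubiquitous clusters, and 21 lay on sequence without a chromosome. Their share among ubiquitous clusters was lowest in homoeologous group 6 (16.7%) and highest in group 5 (20.8%), and ranged from 57 of 380 on chromosome 6D to 135 of 606 (22.3%) on 5B. They lay at a median of 22.8% of the chromosome length from the nearer end, beside 21.7% for all ubiquitous clusters and 18.5% for all clusters. Another ubiquitous cluster of the same strand lay within 500 bp of 403 of them (21.2%), against 15.2% of the concentrated promoters.

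Gene identifiers could be given on chromosome 1A alone, where a readable table of start sites from the study names genes of the IWGSC annotation. There, 49 of the 72 dispersed promoters of the chromosome matched 1 gene each that was also in the RNA-seq tables. All 49 genes had reads in the root and in the embryo RNA-seq library of Chinese Spring, with medians of 17.3 and 15.6 CPM. Of all 107891 genes, 71.4% and 67.9% had reads there, with medians of 3.38 and 2.86 CPM among those above 0. In 3 spike libraries of wild-type control plants, labelled CK, 46 of the 49 had a mean of at least 1 FPKM, against 43.5% of all genes. These plants are of another cultivar, which the labels give as Fielder, while the methods name JW1 for the RNA interference plants. Since members had to carry tags in root, embryo and spike, expression of their genes there follows from the rule. Nothing about dispersed promoters is read from the comparison with all genes. The promoters of 46 of the 49 lay in an H3K4me3 peak, beside 83.3% of all dispersed promoters on 1A and 76.4% of all 1905. The study accepted its low-confidence gene start sites with the help of histone marks, H3K4me3 among them. The share among listed start sites may follow in part from that, and nothing is read from it. The log2 ratio of root over embryo had a median of 0.06 in RNA-seq and 0.92 in CAGE. Across these 49 genes the ratios correlated at Pearson r = 0.435 and Spearman rho = 0.486, a description in which all genes share the same libraries, with 1 RNA-seq library for each tissue. The ratios had the same sign in 27 genes.

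Among the genes with a high-confidence model, TraesCS1A02G197300 had the even promoter at chr1A:355338606-355338751 described above, and 18.3 CPM in root and 18.8 CPM in embryo RNA-seq. The promoter of TraesCS1A02G120000 (chr1A:132416202-132416254, minus strand) had 381 and 272 RPM in spike, 13.6, 13.7, 59.3 and 22.5 RPM in seedling, 86.1, 247 and 113 RPM in embryo, and 92.0 and 90.3 RPM in root. It was higher in spike (edgeR log2 fold change 2.297 ± 0.643 SE, adjusted p = 0.033) and lower in seedling (edgeR log2 fold change -2.55 ± 0.66 SE, adjusted p = 0.023), calls that were lost in 12 and 5 of 17 other settings. The promoter of TraesCS1A02G020400 (chr1A:10057915-10058089, minus strand) had 192 and 157 RPM in root, 144 and 112 RPM in spike, 9.82 to 86.3 RPM in seedling, and 9.76 to 45.2 RPM in embryo. The promoter of TraesCS1A02G096000 (chr1A:91498993-91499068, plus strand) had 46.4 to 93.2 RPM in seedling, 37.0 and 65.1 RPM in spike, 47.8 to 63.6 RPM in embryo, and 65.9 and 63.4 RPM in root. Neither was called in any tissue. The top of the last lay 37 bp upstream of the pooled top in both spike libraries and in seedling replicates 2 and 4, and at the pooled top in all embryo and root libraries. What these genes encode is not given in the sources used here.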

How the data were processed

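CAGE tags, RNA-seq and histone peaks of bread wheat were used, and samples of the series from other plants or assays were not analysed here. The CAGE values deposited are counts of 5′ ends per position and strand, not normalized. To make them, the authors trimmed first reads with Cutadapt, removed reads of organelles and rRNA with SortMeRNA, mapped the rest with Bowtie2 to IWGSC RefSeq v1.0 and kept uniquely mapped reads. Promoters with near-identical copies can therefore lose tags. Removal of PCR duplicates is not described, so limits for a count of 0 (3 tags) cover counting error only. The authors counted RNA-seq reads of root and embryo per gene with HISAT2 and featureCounts and deposited these counts, and the deposited CK values are FPKM. The peak files deposited give start and end alone. For these lists the submitters' processing notes name MACS, and the study's methods name MACS2.

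The files split chromosomes into parts, which were merged through offsets found from the study's listed clusters. Clusters were fitted with edgeR 4.0.16 (quasi-likelihood, TMM factors, library totals, 1 coefficient per tissue), mean positions with limma 3.58.1 (robust), and DESeq2 1.42.0 was an alternative, all in R 4.3.3 with Benjamini-Hochberg adjustment. Both fits were tested on simulated data. Counting used Python 3.11.15. Other settings were the joining distance, the tag minimum, the top limit, the scaling, filters, a replicate block, peak overlap and each library left out in turn.

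Promoters named are the 6 of highest level, the 2 with the largest increase in each tissue with separate libraries, those with the largest span among position calls (0 passed), the 3 widest, the 3 most even, 2 on each side of the 25% limit and 4 with a high-confidence gene. The members, lists and rules were chosen with earlier results of these data known. The thinned comparison of library pairs, the shares in single libraries, the division by level and length and the ranks without seedling replicate 1 were added after seeing the data.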

Additional observations from a re-analysis of the deposited data

Results flagged for a closer look

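In 7 of 31 sets of 4 seedling libraries examined (22.6%), a library lay apart from the other 3 by a gap above the 95% limit of Dixon's test. Independent values with a normal distribution would pass that limit in about 1 set in 20. The sets shared the same libraries, many were of promoters named for extreme values, and their distribution was not checked. The share of 22.6% is therefore a description. Dispersed promoters held 8.23% of the tags of seedling replicate 1, against 5.52% to 5.98% in the others. Seedling replicate 1 was also apart and high at chr4B:566984274-566984507 (4811 RPM), chr4A:733000913-733001177 (3983 RPM) and chr6B:193891214-193891288 (95.7 RPM). Seedling replicate 4 was apart and high at the widest pair, chr5A:616548561-616549244 (8.07 RPM) and chr2A:680108944-680109610 (6.52 RPM), both of which are embryo promoters. Seedling replicate 2 had 0 tags at chr6A:475001948-475002019 (0.0 RPM), where the others had 1.99 to 2.29 RPM. Over all 1905 promoters, 256 (13.4%) had such a set, with seedling replicate 1 apart and high in 110, replicate 2 in 46, replicate 3 in 37 and replicate 4 in 50.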

How the results depend on the processing

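The number of dispersed promoters followed the limits that define them. It was 1262 with a joining distance of 10 bp, 2963 with 50 bp, 976 with a top limit of 20% and 2893 with 30%, and 1517 to 2025 without single libraries. Calls by tissue moved most. With library totals alone, 40 were higher in root. With scaling from ubiquitous clusters, 137 were higher and 44 lower in seedling, and 6 higher and 8 lower in spike. Among clusters of at least 1 RPM, 9 were higher and 1 lower in spike, and 12 and 8 in root. Over ubiquitous clusters alone, the counts were 117 and 29 in seedling, 3 and 1 in spike, and 8 and 7 in root. With DESeq2, 3 were higher in spike, and 1 was higher and 9 lower in root. Without single libraries, the higher calls ranged from 29 to 86 in seedling, 3 to 39 in spike, 12 to 50 in embryo and 0 to 32 in root, and the lower calls from 13 to 113, 0 to 9, 11 to 34 and 4 to 32. The lowest counts came without a spike or an embryo library, and the highest lower counts in seedling, spike and root came without seedling replicate 1. All of these fits, with lower or higher counts, had fewer samples than the main fit, and the cause of the changes was not tested. Position calls numbered 1 with 30 tags in each library and 6 with the median position, and 0 to 3 without single libraries, the most without seedling replicate 4. Peak shares were 79.7% and 72.8% for any base of the cluster, 83.7% and 81.1% within 500 bp, and 70.6% for H3K4me3 with 100 tags in every library. With 200 tags in each tissue, 6.16% of promoters kept the same top in all tissues and 27.1% had tops more than 50 bp apart. Without single libraries, these shares were 2.92% to 3.36% and 29.1% to 31.4%. The 38 calls of named clusters in 17 other settings gave 528 of 646 that stayed past the threshold, 118 that did not and 0 that changed direction. Deviations from the tissue means correlated at a median r of 0.01 over 13 pairs of libraries that share a replicate number and -0.01 over 31 that do not, so the numbers were not taken as pairing. With a replicate block all the same, 35 were higher and 21 lower in seedling, 7 and 2 in spike, 19 lower in embryo, and 7 and 9 in root, and 0 position calls were made.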

Other observations

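Within the 20 promoters of highest level, a further promoter of homoeologous group 7 lay on the plus strand at chr7B:246001940-246002111, outside the rule for named promoters and singled out after its values were seen. It had 402, 588, 543 and 548 RPM in seedling, 1933 and 2116 RPM in spike, 481, 749 and 589 RPM in embryo, and 1633 and 1631 RPM in root. As in the 7A promoter, spike and root were highest and did not overlap seedling or embryo. It was called higher in spike (edgeR log2 fold change 1.45 ± 0.43 SE, adjusted p = 0.043) and lower in seedling (edgeR log2 fold change -1.24 ± 0.39 SE, adjusted p = 0.029). Like the 7A and 7D promoters it lay in peaks of both marks, but its top position held 16.3% of the tags. No sequence was compared, so whether these are copies of the same promoter was not tested.

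A second promoter of high level lay near the end of 4A, at chr4A:732970969-732971214 on the plus strand, on the same strand as the one at 733000913. It had 4848, 811, 574 and 316 RPM in seedling, 189 and 343 RPM in spike, 1576, 1218 and 1192 RPM in embryo, and 1504 and 1459 RPM in root. Both 4A promoters were thus lowest in spike on average, both had their highest value in seedling replicate 1 and neither lay in a peak of either mark. Without that library, the other seedling libraries lay below every embryo and root library at both.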
